A study of Mus musculus with 4 samples.

Results

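The type I interferon-stimulated genes described here are a list of 35 genes, picked by symbol for their known induction by type I interferon and followed in single tumor-infiltrating lymphocytes (TILs) of B16bl6 melanoma. Of the 35 symbols, 34 had a row among the 32285 genes of the count tables, and Mx1 had none. RefSeq lists Mx1 in GRCm38.p6 as a transcribed pseudogene. The genes were read in 4 classes of cells set by unique molecular identifiers (UMIs), the tags that each mark 1 captured RNA molecule. CD8 cells had to carry Cd8a or Cd8b1 without Cd4, conventional CD4 cells held Cd4 and no Foxp3, regulatory cells held both Cd4 and Foxp3, and Siglech cells held at least 2 Siglech UMIs and were taken out of the other classes. The rule gave 5482 CD8, 1661 conventional CD4, 1491 regulatory and 221 Siglech cells in the WT library. The library labelled VISTA-KO gave 4301, 2983, 1260 and 138.

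B16bl6 is a mouse melanoma line, grown here in the skin of C57BL/6 mice aged 6 to 8 weeks, and the study compared TILs with and without VISTA, an inhibitory checkpoint protein encoded by Vsir. Both groups carried loxP-flanked Vsir alleles (Vsir fl/fl). VISTA-KO mice also carried CD4-Cre, which is active while T cells develop and so acts in CD4+ and CD8+ T cells but is not directed at plasmacytoid dendritic or other cells, and WT mice were their littermates without Cre. All mice of both groups received a TRP2 peptide vaccine with CpG and R848, agonists of Toll-like receptors that can themselves lead to interferon, on day 3 of tumor growth and an antibody against CTLA-4 on days 4 and 8. Cells were taken on day 18 after treatment from 1 pool per genotype, of 5 to 6 mice by the methods and of 6 to 8 tumors by a legend, and CD4+ and CD8+ TILs were sorted together. With 1 library per genotype, mice within a pool cannot be told apart, no difference was tested, and genotype cannot be told apart from pool and library. Intervals are at the 95% level, exact Poisson for levels and Clopper-Pearson for shares, and they cover counting error only. Those of levels and ratios leave out the spread between cells as well as that between mice.

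The WT library held 72098984 UMIs in 10337 barcodes and the VISTA-KO library 59916814 in 10085, and 10224 and 9946 cells were kept. Vsir did not check the labels: its level in CD8 cells was 112 CPM (UMIs of the gene per 1000000 UMIs of the class) in both libraries (ratio 0.993, interval 0.948 to 1.04), and it was 114 against 120 CPM in conventional CD4 cells and 114 against 118 CPM in regulatory cells. In Siglech cells, at which CD4-Cre is not directed, it was 69.5 against 50.3 CPM (0.724, 0.543 to 0.957). The sources used here do not say which part of Vsir is deleted, and reads from outside it would be counted in either genotype. "VISTA-KO" therefore stands for the library so labelled throughout, also wherever a direction is given, and in pairs of values WT comes first. The gates use some of the marker genes themselves, and the marker levels matched the classes in part. Siglech cells summed to 12071 and 13707 CPM over 10 plasmacytoid dendritic markers, against 163 to 211 CPM in the T cell classes, and regulatory cells to 2667 and 3374 CPM over 6 regulatory markers. Cells of no class also held 1658 and 1503 CPM of the latter. Cd8a was 1053 and 1039 CPM in CD8 cells but also 379 and 187 CPM in conventional CD4 and 337 and 156 CPM in regulatory cells. Siglech cells also held T cell markers, with Cd3e at 400.7 and 210.4 CPM and Cd8b1 at 598.7 and 426.4 CPM. Both Cd4 and Cd8 UMIs were found in 116 of 221 WT and 59 of 138 VISTA-KO Siglech cells. A T cell receptor was found in 19.0% and 19.6% of them. The part of T cell RNA in the Siglech levels and ratios was not tested. The libraries also differed within classes in ways that touch the results. WT regulatory cells had a median of 8739 UMIs against 5908, 759 of 1491 also held a Cd8a or Cd8b1 UMI against 367 of 1260, and a T cell receptor was found in 56.6% against 79.9%. In conventional CD4 cells, 497 of 1661 WT and 587 of 2983 VISTA-KO cells held a Cd8a or Cd8b1 UMI, and melanoma markers differed in all T cell classes, as given beside the results. The 2 libraries shared 144 cell barcodes among the cells kept.

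Type I interferons bind the receptor made of IFNAR1 and IFNAR2, and the kinases TYK2 and JAK1 then act on STAT2, which joins IRF9 in the complex ISGF3. ISGF3 binds the interferon-stimulated response element (ISRE) near its target genes, many of which block viral replication or sense viral RNA and DNA. Interferon gamma acts through another element, GAS, and several members, Irf1 foremost, answer to it as well. In tumors, T cells meet both kinds of interferon, and plasmacytoid dendritic cells are known for making type I interferon and for a high resting level of IRF7.

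Promoter letters that match the ISRE and GAS elements are shown for some of the members, as windows of 300 bases from 250 before to 50 after a start site. Windows come from RefSeq (GRCm38.p6) and run 5′ to 3′ on the gene's strand. Ifit1, Ifit3, Ifit3b, Isg15 and Rsad2 are among the members most tied to one another from cell to cell, and Irf1 is the least tied in CD8 cells. Cmpk2, Oasl1 and Ifi44 are strongly tied too, but their windows held no ISRE core and are not shown. Capitals mark the ISRE core GAAANNGAAA or its other strand TTTCNNTTTC, and in Irf1 the GAS core TTCNNNGAA.
Ifit1 (chr19:34640639-34640938, plus strand): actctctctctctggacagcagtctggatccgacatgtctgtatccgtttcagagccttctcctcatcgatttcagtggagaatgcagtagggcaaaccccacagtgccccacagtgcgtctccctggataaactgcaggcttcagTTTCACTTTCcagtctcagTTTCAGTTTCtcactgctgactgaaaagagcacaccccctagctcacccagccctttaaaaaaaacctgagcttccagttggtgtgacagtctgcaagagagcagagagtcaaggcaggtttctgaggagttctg
Ifit3 (chr19:34583279-34583578, plus strand): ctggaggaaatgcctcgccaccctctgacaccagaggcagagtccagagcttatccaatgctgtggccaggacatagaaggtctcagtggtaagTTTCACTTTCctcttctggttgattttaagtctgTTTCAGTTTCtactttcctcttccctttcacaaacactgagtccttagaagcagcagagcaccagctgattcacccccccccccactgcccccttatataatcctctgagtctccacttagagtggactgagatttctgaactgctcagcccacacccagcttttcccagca
Ifit3b (chr19:34607707-34608006, plus strand): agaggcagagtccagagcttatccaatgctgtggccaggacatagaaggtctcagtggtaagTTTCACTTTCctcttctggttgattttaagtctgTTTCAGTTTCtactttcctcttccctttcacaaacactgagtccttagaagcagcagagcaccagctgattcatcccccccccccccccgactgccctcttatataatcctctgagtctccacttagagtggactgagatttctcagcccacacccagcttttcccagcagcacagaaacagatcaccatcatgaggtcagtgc
Isg15 (chr4:156200769-156201068, minus strand): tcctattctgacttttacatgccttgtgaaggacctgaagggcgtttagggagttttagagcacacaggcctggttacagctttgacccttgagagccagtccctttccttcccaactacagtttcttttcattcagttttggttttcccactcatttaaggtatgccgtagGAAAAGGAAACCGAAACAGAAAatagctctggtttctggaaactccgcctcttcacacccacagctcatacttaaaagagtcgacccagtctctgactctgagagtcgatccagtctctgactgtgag
Rsad2 (chr12:26456403-26456702, minus strand): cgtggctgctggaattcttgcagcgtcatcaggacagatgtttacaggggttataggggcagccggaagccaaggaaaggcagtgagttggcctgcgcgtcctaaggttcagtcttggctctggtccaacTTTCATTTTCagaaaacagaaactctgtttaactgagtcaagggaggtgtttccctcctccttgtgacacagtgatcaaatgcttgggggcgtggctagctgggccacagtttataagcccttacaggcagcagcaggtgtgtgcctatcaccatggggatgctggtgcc
Irf1 (chr11:53769764-53770063, plus strand): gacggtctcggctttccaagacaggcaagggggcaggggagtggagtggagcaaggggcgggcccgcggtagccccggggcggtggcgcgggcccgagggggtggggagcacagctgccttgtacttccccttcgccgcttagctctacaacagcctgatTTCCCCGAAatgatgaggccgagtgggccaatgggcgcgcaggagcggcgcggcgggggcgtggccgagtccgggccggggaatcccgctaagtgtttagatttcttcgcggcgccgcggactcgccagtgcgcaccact

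The Ifit1 window held 2 ISRE cores, which begin 104 and 85 bases before the start site. Those of Ifit3 and Ifit3b also held 2 each, and these windows shared an unbroken run of 169 bases. Ifit3 and Ifit3b are near-identical copies on chromosome 19, so reads could be split between them or dropped, and their separate counts are uncertain. Isg15 held 3 cores that overlap one another, the first of them 78 bases before the start site, and Rsad2 held 1 core 120 bases before it. Irf1 held no ISRE core and 1 GAS core 90 bases before its start site. A window was given for 27 members and for 27025 genes in all. At least 1 ISRE core stood in 13 of the 27 (48.1%) and in 3.99% of all genes, and a GAS core stood in 6 of the 27 (22.2%) and in 9.55% of all. Of the core members defined below, 8 had a window and 5 of these held an ISRE core, which are the 5 shown. The windows shown are therefore no measure of how the motif goes with the ties between members. The members with no window were Mx1, Dhx58, Zbp1, Usp18, Rtp4, Ifi27l2a, Parp14 and Ly6a. A match is a description of the letters, and the absence of a match says only that they are not in that window.

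Summed over the 34 members, the level was higher in VISTA-KO in CD8, regulatory and Siglech cells and close to equal in conventional CD4 cells. In CD8 cells the sum came to 3435 CPM for WT and 4020 CPM for VISTA-KO, which is a 1.17-fold difference (1.16 to 1.18). Regulatory cells held 5172 and 6392 CPM, a ratio of 1.24 (1.22 to 1.25), and Siglech cells 7877 and 9560 CPM, a ratio of 1.21 (1.19 to 1.24). Conventional CD4 cells held 4908 and 4905 CPM, a ratio of 0.999 (0.988 to 1.01). The sums are carried by few genes: Ly6a and Ifi27l2a gave 24.1% and 19.7% of the summed CPM in CD8 cells and 32.3% and 28.9% in regulatory cells, and Bst2 gave 39.6% in Siglech cells. Without Ly6a the log2 ratio of the sum in regulatory cells was 0.44 in place of 0.31. Ly6a itself differed little there, at 1842 and 1888 CPM. Ifi27l2a rose from 1391 to 1952 CPM in the same cells, and the sum without it was not computed. The sums moved when cells of like depth were read. With only cells of 3000 to 8000 UMIs, a setting chosen after the data were seen, the log2 ratio was 0.18 in place of 0.23 in CD8 cells, 0.14 in place of 0.31 in regulatory cells and 0.07 in place of 0.28 in Siglech cells.

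Gene by gene, regulatory cells stood apart. Among genes with a mean of at least 20 CPM over the libraries, a gene was counted as past the threshold from 1.2-fold, on CPM plus 5. In CD8 cells 4 of 27 members were past it upward (background 3.01% of 5906 genes) and 0 downward (2.44%). In regulatory cells 17 of 27 were past it upward (8.88% of 6072 genes) and 0 downward (7.54%). In Siglech cells 9 of 23 were past it upward (13.6% of 6062 genes) and 2 downward (15%), and in conventional CD4 cells 1 of 29 upward (4.68% of 6063 genes) and 5 downward (6.17%). The median log2 ratio of the members was 0.19 in CD8, 0.32 in regulatory, 0.20 in Siglech and -0.06 in conventional CD4 cells, where that of all genes lay between -0.03 and -0.01. The log2 ratio was higher in regulatory than in conventional CD4 cells for 34 of the 34 members, a difference that was not tested and whose sides come from the same pair of libraries. The share of all genes with this order was not counted. Many members also vary together from cell to cell, so the 34 are not separate observations.

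**Figure D1:**
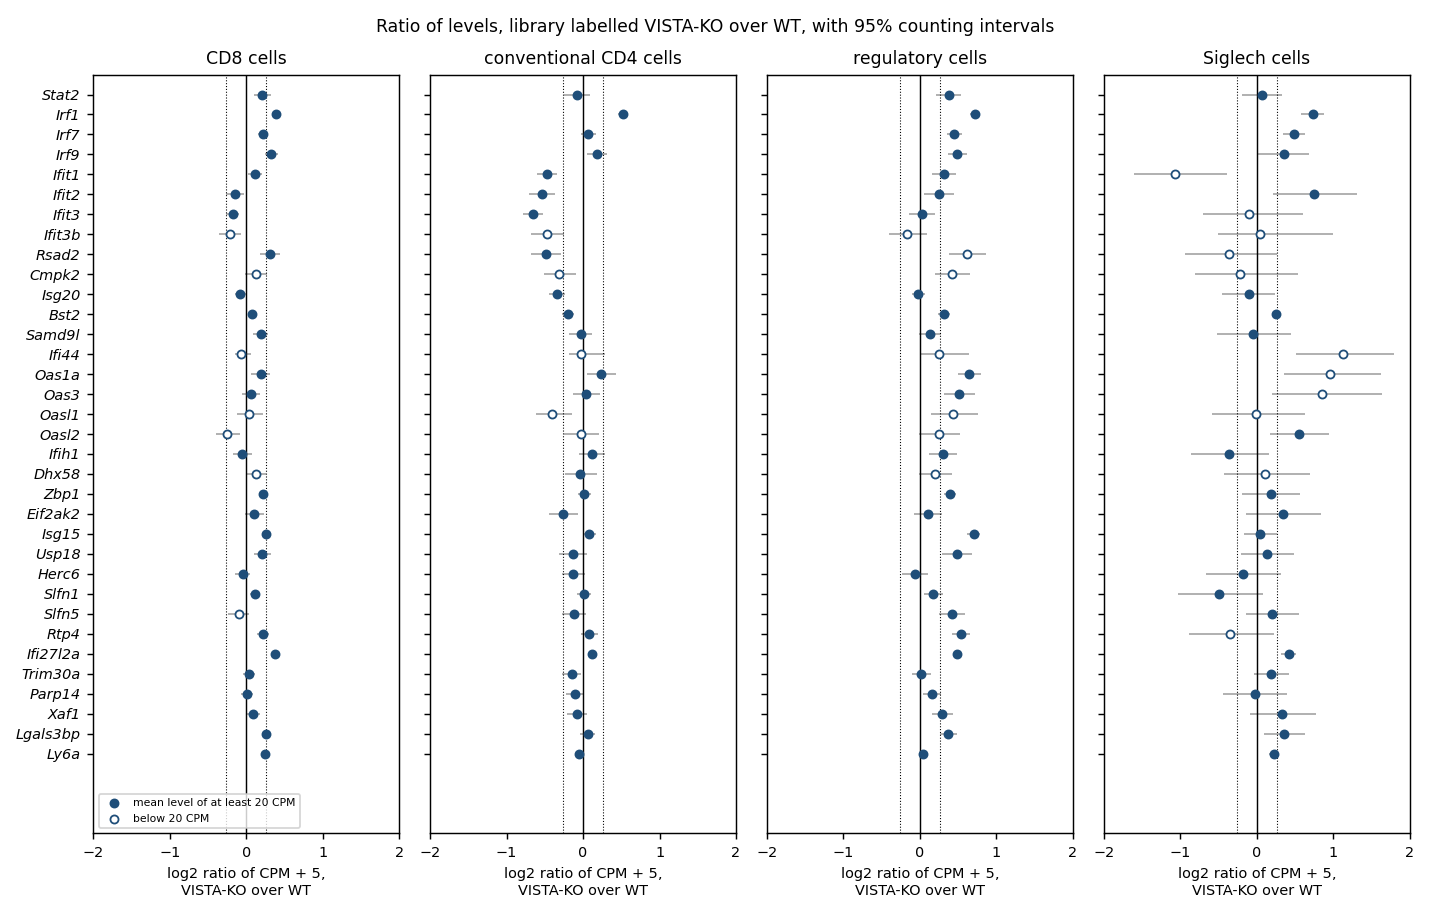
Log2 ratio of CPM plus 5, VISTA-KO over WT, for each of the 34 members (rows) in 4 classes of cells (panels), with 95% counting intervals as grey lines, filled points for members of at least 20 CPM, open points below that, and dotted lines at 1.2-fold. Irf1 lies right of the upper line in every panel, and Ifit1, Ifit2, Ifit3, Rsad2 and Isg20 are the filled points left of the lower line in conventional CD4 cells.

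Among the 4 transcription factors of the list, Irf1 differed in every class. Irf1, which encodes a factor induced by interferon gamma and type I interferon, stood at 234 CPM in the WT and at 307 CPM in the VISTA-KO CD8 cells (log2 ratio 0.38). It was 264 and 381 CPM in conventional CD4 cells (0.52), 235 and 389 CPM in regulatory cells (0.72), and 293 and 489 CPM in Siglech cells (0.73). Irf1 was the only member past 1.2-fold upward in all 3 T cell classes, and the interval of its ratio stayed above 1 in each class (lowest bound 1.27, in CD8 cells). Irf7, the factor that amplifies type I interferon production, was 108 and 126 CPM in CD8, 148 and 156 CPM in conventional CD4, 94.2 and 131 CPM in regulatory and 344 and 486 CPM in Siglech cells. Its log2 ratios were 0.21, 0.07, 0.45 and 0.49. Irf9, the DNA-binding subunit of ISGF3, had log2 ratios of 0.33, 0.18, 0.49 and 0.35 in the same order, from WT levels of 54.4 to 66.8 CPM. Stat2, another subunit of ISGF3, was 34.4 and 46.2 CPM in regulatory cells (0.38) and 36.3 and 34 CPM in conventional CD4 cells (-0.08). All 4 factors were past 1.2-fold upward in regulatory cells, and 1 of 4, Irf1, was in conventional CD4 cells. In Siglech cells Irf9 turned to -0.06 when only cells of 3000 to 8000 UMIs were read.

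The antiviral effectors split by class, and they held all 5 members that were past 1.2-fold downward in conventional CD4 cells. How these 5 were spread over single cells of that class is given below. Ifit1, which binds viral RNA caps, stood at 73.3 CPM in the WT and at 51.5 CPM in the VISTA-KO conventional CD4 cells (log2 ratio -0.47, ratio interval 0.63 to 0.78). Ifit2, of the same family, was 42.2 and 27.5 CPM (-0.54), and Ifit3 was 78.6 and 48.1 CPM (-0.66). Rsad2, which encodes viperin, an enzyme that makes a chain-terminating nucleotide, was 28 and 18.5 CPM (-0.49), and Isg20, an exonuclease, was 139 and 109 CPM (-0.34). Each of these 5 intervals lay below 1, but they leave out the spread between cells. Core UMIs per cell, defined below, had a variance of 13.5 (WT) and 8.35 (VISTA-KO) times the mean in conventional CD4 cells. The interval of the core sum is therefore too narrow there, and the spread of single members was not computed. Ifit3b (19 and 12.3 CPM) and Cmpk2 (22.2 and 17 CPM), a nucleotide kinase gene that adjoins Rsad2 on chromosome 12, did not reach a mean of 20 CPM there and had log2 ratios of -0.47 and -0.31.

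In the other T cell classes the same effectors gave a different picture. Ifit1 was 47.3 and 51.7 CPM in CD8 cells (0.12) and 39.5 and 50.5 CPM in regulatory cells (0.32), Ifit3 was 73.4 and 64.3 CPM (-0.18) and 36.3 and 37 CPM (0.03), and Ifit2 was 30.7 and 27.2 CPM (-0.15) and 21.1 and 25.9 CPM (0.25). Rsad2 was 17.4 and 22.8 CPM in CD8 cells (0.31), but its log2 ratio there was -0.02 among cells of 3000 to 8000 UMIs, and it was 10.7 and 19.1 CPM in regulatory cells, below the mean of 20 CPM. Thus no IFIT gene was past 1.2-fold upward in CD8 cells, and Ifit1 alone was in regulatory cells. Bst2, which tethers budding virus to the cell surface and is known as a marker of mouse plasmacytoid dendritic cells, was 206 and 258 CPM in regulatory cells (0.31) and 245 and 213 CPM in conventional CD4 cells (-0.20). In Siglech cells Bst2 was 3155 and 3746 CPM (0.25), far above any T cell class in either library. Samd9l, a growth-restraining antiviral gene, lay within 1.2-fold in every class, at 29.4 to 55.6 CPM. Ifi44 was under 3 CPM in every T cell class and was 10.2 and 28 CPM in Siglech cells.

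The 2-5A synthetases, which make the oligoadenylates that switch on RNase L, were past 1.2-fold in the regulatory class alone among T cells. In regulatory cells Oas1a stood at 36.2 CPM (WT) and 59.5 CPM (VISTA-KO) with a log2 ratio of 0.65, against 21 and 24.7 CPM in CD8 cells (0.19) and 27.3 and 33 CPM in conventional CD4 cells (0.23). Oas3 was 17.2 and 26.7 CPM in regulatory cells (0.51) and within 1.2-fold in the other T cell classes. Oas1a belongs to a cluster of near-identical copies on chromosome 5, so its own count is uncertain. Oasl1 and Oasl2, of the same family, were at 15.2 CPM or less in every T cell class and library. In Siglech cells Oasl2 was 41.8 and 63.6 CPM (0.55), but the log2 ratio there was -0.41 once cells with 3 or more macrophage or melanoma marker UMIs were left out. Most macrophage marker CPM of Siglech cells came from Cd68 (327 and 422 CPM).

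Among the sensors, Zbp1, which detects Z-form nucleic acid and can start necroptosis, was 154 and 204 CPM in regulatory cells (log2 ratio 0.39), 161 and 188 CPM in CD8 cells (0.22) and 186 and 188 CPM in conventional CD4 cells (0.02). Ifih1, which encodes the RNA sensor MDA5, was 26.5 and 33.6 CPM in regulatory cells (0.30) and within 1.2-fold in the other T cell classes. Dhx58, which encodes LGP2, a partner of that sensor, and Eif2ak2, which encodes the kinase PKR that halts translation, were within 1.2-fold in all 3 T cell classes. Zbp1 and Ifih1 thus made up the 2 sensors past 1.2-fold upward in regulatory cells, of 3 that reached 20 CPM there. Dhx58 fell short of that level, at 17.7 and 21.1 CPM.

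Isg15, a ubiquitin-like protein joined to other proteins during the response, was 132 and 217 CPM in regulatory cells (log2 ratio 0.70, ratio interval 1.55 to 1.75). It was 137 and 166 CPM in CD8 cells (0.26), 182 and 193 CPM in conventional CD4 cells (0.08) and 183 and 189 CPM in Siglech cells (0.05). Usp18, which removes ISG15 and damps signaling at the type I receptor, was 20.5 and 30.6 CPM in regulatory cells (0.48) and 31.8 and 28.4 CPM in conventional CD4 cells (-0.14). Herc6, the mouse ligase that attaches ISG15, was within 1.2-fold in every class, at 26.6 to 47.8 CPM. In WT, regulatory cells held the lowest level of Isg15 and of Usp18 among the 4 classes. In VISTA-KO, Isg15 was highest in regulatory cells, and Usp18 lay there between its levels in conventional CD4 and CD8 cells.

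The remaining 9 members include the most abundant of the list. Ifi27l2a, a small interferon-induced membrane protein, was 639 and 831 CPM in CD8 cells (log2 ratio 0.37), 987 and 1067 CPM in conventional CD4 cells (0.11), 1391 and 1952 CPM in regulatory cells (0.49) and 780 and 1043 CPM in Siglech cells (0.42). Ly6a, which encodes the surface protein Sca-1 and is high on activated mouse T cells, was 822 and 978 CPM in CD8 cells (0.25) but 1418 and 1361 CPM in conventional CD4 cells (-0.06) and 1842 and 1888 CPM in regulatory cells (0.04). The 2 genes therefore moved apart in regulatory cells, where Ifi27l2a was past the threshold and Ly6a was not. Rtp4, a chaperone of surface receptors, was 68.8 and 102 CPM in regulatory cells (0.54), and Slfn5, a Schlafen family gene, was 31.3 and 43.7 CPM (0.42). Lgals3bp, a secreted glycoprotein, was 83.8 and 110 CPM there (0.37), and Xaf1, a gene tied to cell death, was 53.8 and 67.1 CPM (0.29). Slfn1, a Schlafen gene linked to T cell quiescence, was 149 and 150 CPM in conventional CD4 cells and 24.6 and 16.1 CPM in Siglech cells. Trim30a, a restrainer of innate signaling, and Parp14, an ADP-ribosyltransferase, were within 1.2-fold in all 4 classes.

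Cells of no class, 1369 in WT and 1264 in VISTA-KO, gave a ratio of 0.956 for the summed members. Of the 29 members that reached 20 CPM there, 5 were past 1.2-fold upward (background 8.74% of 6157 genes) and 7 downward (9.18%). Their melanoma markers summed to 111 and 1382 CPM. The regulatory and conventional CD4 values were read again without cells that held both Cd4 and Cd8 UMIs, a setting chosen after the data were seen because such cells were more frequent in WT. In regulatory cells 732 WT and 893 VISTA-KO cells were left, and the log2 ratio of the sum was 0.21 in place of 0.31 and that of the core members 0.86 in place of 0.55. In conventional CD4 cells 12 of 30 members were then past 1.2-fold downward, against 8.60% of all genes, and 2 upward, against 4.78%. The core log2 ratio there was -0.51 in place of -0.24, at 578 and 405 CPM. The summed melanoma markers also differed between libraries, at 6.68 and 223 CPM in regulatory cells, 13.1 and 255 CPM in CD8 cells and 264 and 21.8 CPM in conventional CD4 cells, with none of the 6 genes at 0 in any of these. Summed over 8 macrophage markers, regulatory cells held 163 and 85.8 CPM. Without cells that held 3 or more UMIs of either list, the log2 ratio of the 9 core members was 0.63 in regulatory and -0.21 in conventional CD4 cells, against 0.55 and -0.24 with them. In Siglech cells the macrophage markers summed to 391.7 and 456 CPM, with 1 of the 8 at 0 in each library. Cd68 alone gave 327 and 422 CPM of these sums. The same step left 76 and 32 Siglech cells and took the core log2 ratio from 0.05 to -0.79. Whether the Siglech cells left out held macrophage RNA other than Cd68 was not tested. The part of other cells' RNA in the remaining values was not tested.

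**Figure D2:**
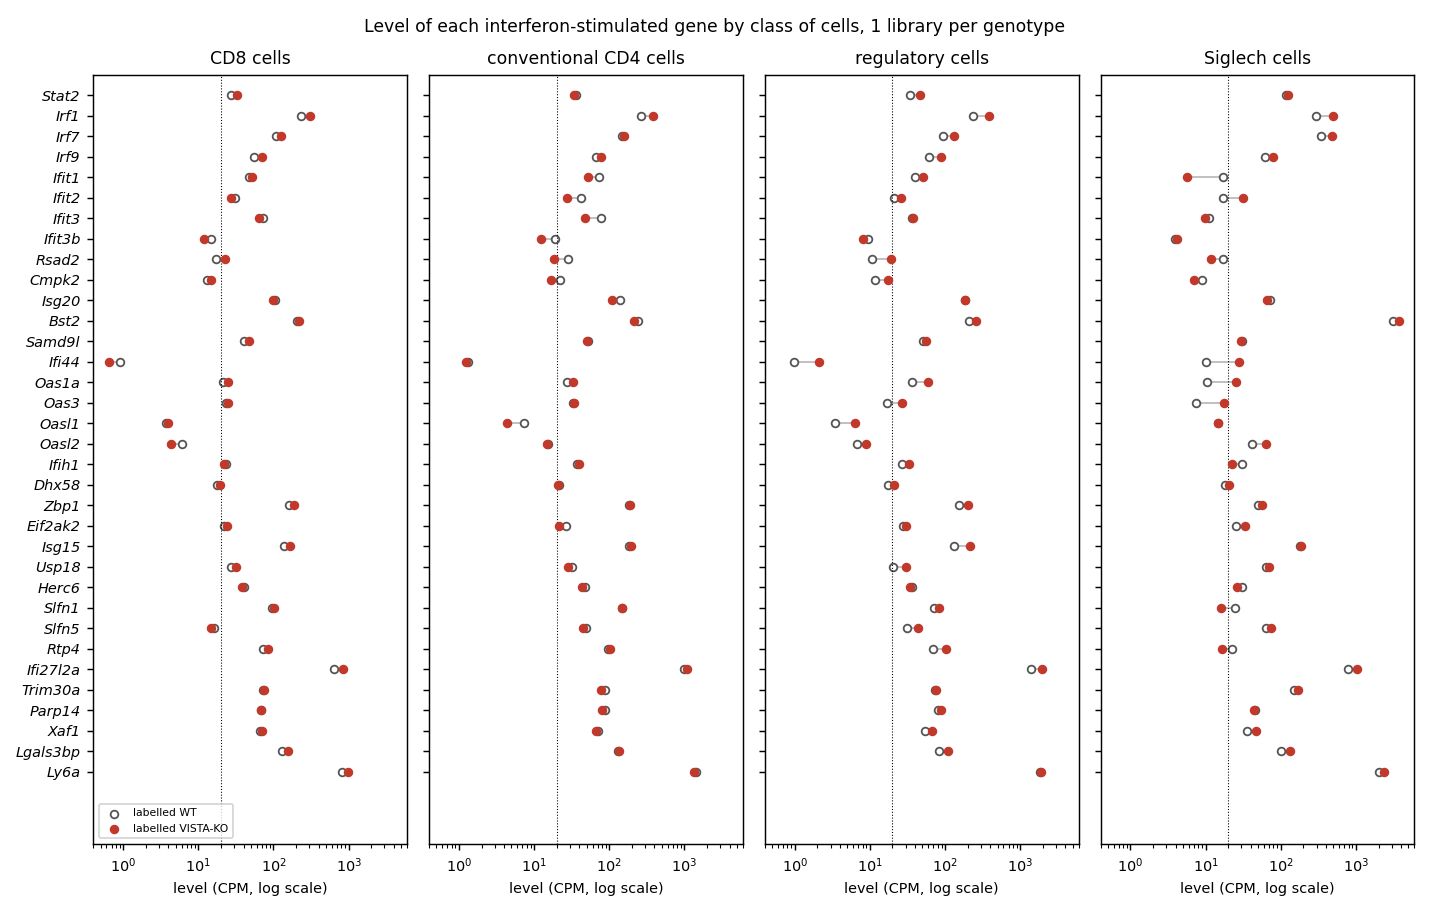
Level of each of the 34 members in CPM on a log axis (rows are genes, panels are classes of cells), with open grey points for the WT library, red points for the library labelled VISTA-KO and a dotted line at 20 CPM. Bst2 stands near 3155 and 3746 CPM in Siglech cells against 206 to 258 CPM in the T cell classes, and Ly6a and Ifi27l2a are the rightmost points in the T cell panels.

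The levels of the members also differed between classes. Averaged over the libraries, the level among T cell classes was highest in conventional CD4 cells for 21 members, in regulatory cells for 11 and in CD8 cells for 2, Ifit3 and Lgals3bp. The share of all genes highest in each class was not counted. Some of these calls are near ties. Xaf1 was 69.0 CPM in conventional CD4 and 68.5 CPM in CD8 cells, and Parp14 was 84.5 CPM in regulatory and 84.4 CPM in conventional CD4 cells. On CPM plus 5, which holds down the folds of low genes, Siglech cells were at least 2-fold above the mean of the T cell classes for 8 members: Bst2 (15.1-fold), Oasl2 (4.01), Ifi44 (3.88), Irf7 (3.18), Stat2 (3.17), Usp18 (2.16), Trim30a (2.01) and Oasl1 (2.01). On the same scale the ratio was at most 0.5 for 5 members: Slfn1 (0.223), Ifit3 (0.251), Rtp4 (0.265), Ifit1 (0.286) and Zbp1 (0.313). The share of all genes past either limit was not counted. Without the added 5 CPM, Ifi44 stood at 19.1 CPM in Siglech and at 0.771 to 1.54 CPM in T cell classes, and Ifit3b at 4.05 against 8.80 to 15.7 CPM. Among the transcription factors, Irf7 and Stat2 thus stood high in Siglech cells, while Irf1 (1.29) and Irf9 (1.01) did not reach 2-fold. Among the antiviral effectors, Ifit1 and Ifit3 stood low in them, while Bst2 and Ifi44 stood high.

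To ask how the members are spread over single cells, 10 core members were set apart: Ifit1, Ifit3, Ifit3b, Isg15, Rsad2, Usp18, Cmpk2, Oasl1, Mx1 and Ifi44, of which 9 have a row. Each cell was thinned to 2000 UMIs, shallower cells were left out, and a cell with at least 5 core UMIs was called core-high. Most cells held none: 76.1% of WT and 73.7% of VISTA-KO CD8 cells had 0 core UMIs. Core-high cells were 232 of 5192 WT CD8 cells (4.47%, 3.92 to 5.07) and 180 of 4115 VISTA-KO CD8 cells (4.37%, 3.77 to 5.04). Those few cells carried 64.4% and 59.9% of the core UMIs of the class, and the variance of core UMIs per cell was 10.9 and 9.36 times the mean. The threshold cuts a continuous range, with 52 WT and 42 VISTA-KO CD8 cells at 4 core UMIs and 40 and 31 at 5.

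The share of core-high cells was within counting error between libraries in CD8 and conventional CD4 cells and higher in VISTA-KO in regulatory cells. In conventional CD4 cells it was 5.04% (77 of 1528, 4.0 to 6.26) and 4.07% (115 of 2825, 3.37 to 4.87). In regulatory cells it was 2.21% (32 of 1446, 1.52 to 3.11) and 4.38% (53 of 1209, 3.30 to 5.70). Without thinning, the order in regulatory cells turned, at 14.2% and 13.7%, where the WT cells were the deeper ones. Siglech cells held 7 of 220 (3.18%, 1.29 to 6.45) and 6 of 137 (4.38%, 1.62 to 9.29). Summed core levels were 265 and 389 CPM in regulatory cells (ratio 1.47, 1.41 to 1.53), 443 and 374 CPM in conventional CD4 cells (0.844, 0.812 to 0.879), 329 and 340 CPM in Siglech cells (1.03, 0.923 to 1.16) and 335 and 367 CPM in CD8 cells (1.10, 1.07 to 1.13). The CD8 direction depends on how cells are weighted: the log2 ratio was 0.13 for summed UMIs, -0.03 for the mean of each cell's own CPM and -0.03 after thinning. In Siglech cells the core log2 ratio was -1.10 among the 61 and 34 cells of 3000 to 8000 UMIs, at 374 and 174 CPM, against 0.05 over all of them.

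**Figure D3:**
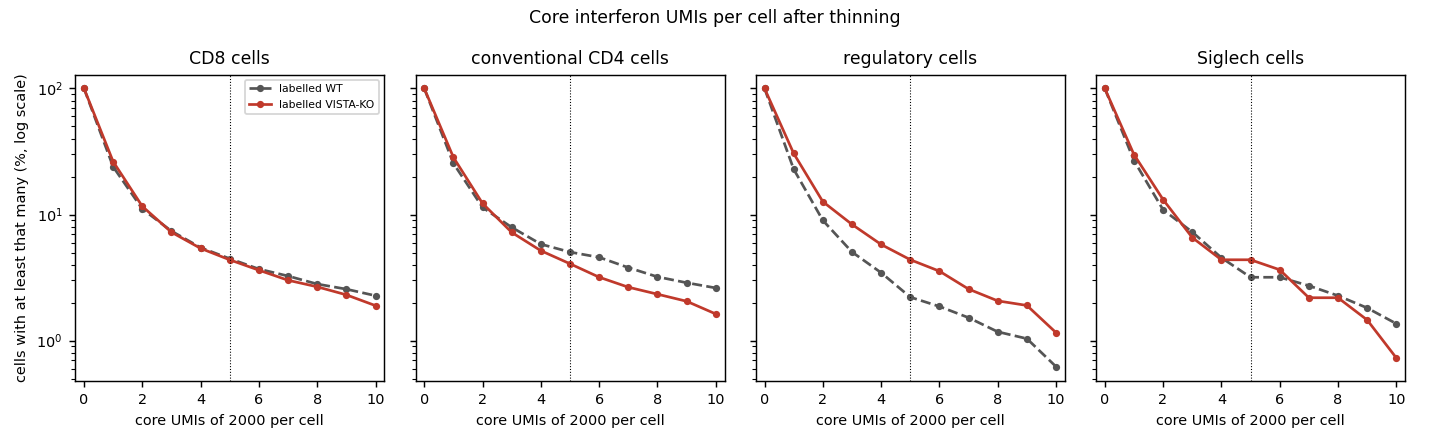
Share of cells (percent, log axis) with at least the given number of core UMIs out of 2000, by class (panels), with grey dashed lines for WT, red solid lines for the library labelled VISTA-KO and a dotted line at 5 core UMIs. The last point counts cells with 10 or more. The lines run close together in CD8 cells, and in regulatory cells the VISTA-KO line lies above the WT line from 1 UMI on.

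Each member was then compared between core-high and other cells, with the member itself left out of the core, as a description without a test. In CD8 cells Rsad2 was the most tied to the rest of the core, at 390 CPM in core-high and 4.61 CPM in other WT cells, and 429 and 6.71 CPM in VISTA-KO (mean ratio 72.3). Ifit3b (39.6), Ifit1 (37.3), Ifit3 (36.0), Cmpk2 (33.6), Isg15 (24.8), Oasl1 (23.8) and Usp18 (21.7) followed. When Ifit3 or Ifit3b was left out, its near-identical copy stayed in the core, and the part of that in their ratios was not tested. Of the 25 members outside the core, 18 were at least 5-fold higher in core-high CD8 cells, led by Slfn5 (14.5), Ifit2 (14.4) and Oasl2 (13). Ly6a (2.52), Irf9 (2.20) and Irf1 (1.49) stood lowest, and Irf1 was the only one under 1.5-fold. The order was alike in conventional CD4 cells, where Rsad2 reached 54.9 and Irf1 1.51, while in regulatory cells Rsad2 reached 25.0, Irf1 1.10, and only 6 of the 25 were at least 5-fold. Irf1, whose level differed between libraries in every class, was therefore the member whose level differed least between core-high and other cells.

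**Figure D4:**
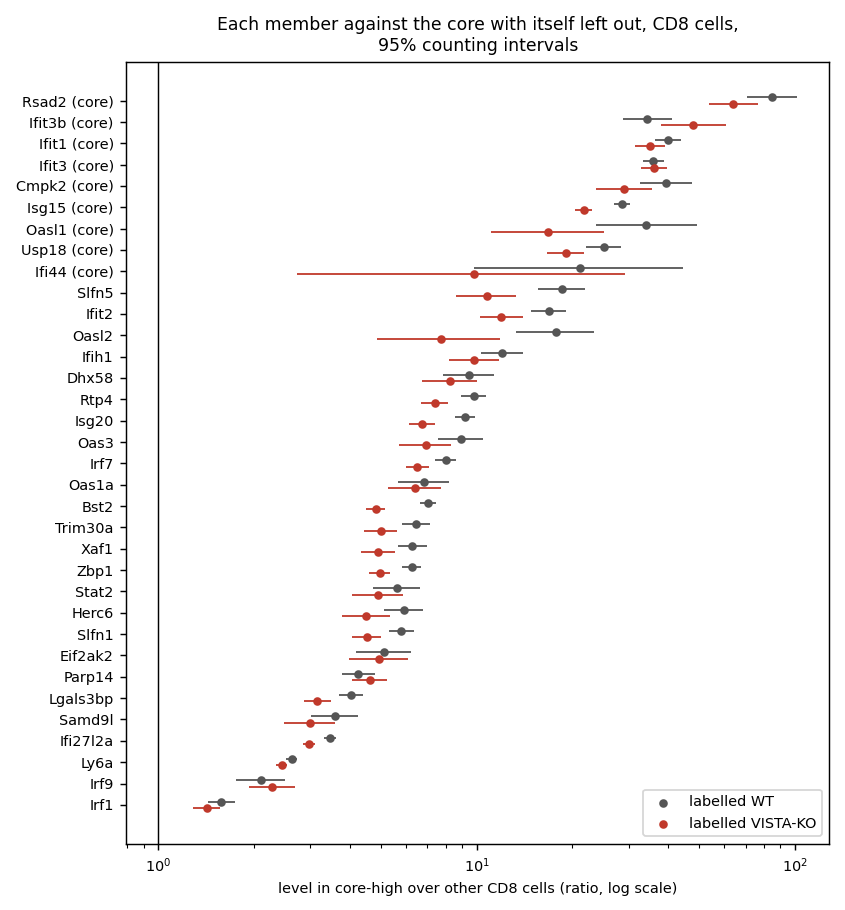
Level in core-high over other CD8 cells for each of the 34 members (rows, ordered by the mean of both libraries), as a ratio on a log axis with 95% counting intervals, grey for WT and red for the library labelled VISTA-KO. Rsad2 is at the top with a mean ratio of 72.3, Irf1 at the bottom with 1.49, and the red point lies left of the grey one for 30 of 34 members. The share of all genes with that order was not counted. For Ifit3 and Ifit3b the near-identical copy stayed in the core.

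The ratio was smaller in VISTA-KO than in WT for 30 of 34 members in CD8 cells, all but Irf9, Ifit3, Ifit3b and Parp14, and for 34 of 34 in conventional CD4 cells and 23 of 34 in regulatory cells. The share of all genes with a smaller ratio was not counted. All these ratios rest on nearly the same core-high cells, so the members are not separate observations. For Isg15 in CD8 cells, the core-high level was 2549 and 2481 CPM while the other cells held 88.9 and 114 CPM. For Bst2 the core-high level was 1203 and 912 CPM and the other cells held 171 and 189 CPM. The higher CD8 levels in VISTA-KO of Isg15 and Bst2 thus lay in the cells that were not core-high. In conventional CD4 cells Ifit2 was 557 and 197 CPM in core-high cells against 17.6 and 20.5 CPM in other cells. Rsad2 was 494 and 290 CPM against 6.25 and 8.04 CPM, and Ifit1 1124 and 752 CPM against 29.6 and 28.7 CPM. Ifit3 was 1213 and 724 CPM against 30.3 and 25.8 CPM, and Isg20 885 and 599 CPM against 105 and 89.2 CPM. The lower levels of Ifit1, Ifit2 and Rsad2 thus lay mainly in core-high cells, and those of Ifit3 and Isg20 in both. Among the 27 members with a promoter window, the median ratio in CD8 cells was 10.9 for the 13 with an ISRE core (5.02 to 72.3) and 6.37 for the 14 without (1.49 to 33.6), so the ranges overlap.

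Among 5879 genes outside the members ranked in CD8 cells, the 10 with the highest ratio of core-high over other cells were Cxcl10, Ifit1bl1, Iigp1, Ifi208, Phf11a, Gbp10, Daxx, Ifi214, Ube2l6 and Tor3a, of which Ifi208, Daxx, Ube2l6 and Tor3a are also on the pathway list. Cxcl10, a chemokine that draws T cells through CXCR3, was 616 CPM in core-high and 16.6 CPM in other WT cells and 476 and 35.4 CPM in VISTA-KO (mean ratio 21.0). The other 9 had ratios of 6.55 to 9.43. Macrophage markers summed to 199 CPM in core-high and 146 CPM in other WT CD8 cells and to 355 and 140 CPM in VISTA-KO, and their part in these ratios was not tested. Of the pathway, the feedback inhibitor Socs1 was 2.46-fold higher in core-high CD8 cells, while Ifnar1 (1.18), Ifnar2 (1.17) and Tyk2 (1.06) had lower mean ratios. For Ifng (mean ratio 1.11) the libraries went opposite ways. Core-high and other cells held 318 and 205 CPM of it in WT, but 279 and 334 CPM in VISTA-KO.

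Within classes, single gates set apart states of T cells. Cells with Ccr7, a homing receptor of resting and memory T cells, held low shares of core-high cells, 1.46% and 1.62% of CD8 cells with Ccr7 and no Havcr2 and 1.40% and 0.806% of conventional CD4 cells with Ccr7. CD8 cells with Cx3cr1 were as low, at 1.97% and 1.45%, and those with Mki67 held 2.58% and 2.41%. CD8 cells with Il7r but neither Ccr7 nor Havcr2 held 4.71% and 3.87%, and conventional CD4 cells with Cxcr6 and no Ccr7 held 5.66% and 4.40%. The ratio of the summed members, VISTA-KO over WT, was 1.26 (1.24 to 1.29) in CD8 cells with Havcr2, the exhaustion marker TIM-3, and no Mki67. It was 1.2 (1.18 to 1.22) in CD8 cells with Mki67 and 1.22 (1.17 to 1.27) in those with Cx3cr1 and neither Mki67 nor Havcr2, but 1.07 (1.04 to 1.10) with Ccr7 and 1.06 (1.04 to 1.08) with Il7r. The core sum was higher in VISTA-KO with Havcr2, at 218 and 318 CPM (1.46, 1.35 to 1.57), and lower with Ccr7, at 203 and 176 CPM (0.867, 0.781 to 0.963), where the sum of all members was higher. With Il7r the core ratio was 0.973 (0.910 to 1.04). Core-high cells were 17 of 583 WT CD8 cells with Havcr2 (2.92%, 1.71 to 4.63) and 28 of 658 in VISTA-KO (4.26%, 2.85 to 6.09). These 2 intervals overlap. The summed levels of the gates were not read again at matched depth. Regulatory cells with Itgae, the integrin CD103, and without it gave 1.25 and 1.23 for all members and 1.33 and 1.63 for the core. Differences between gates were not tested.

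**Figure D5:**
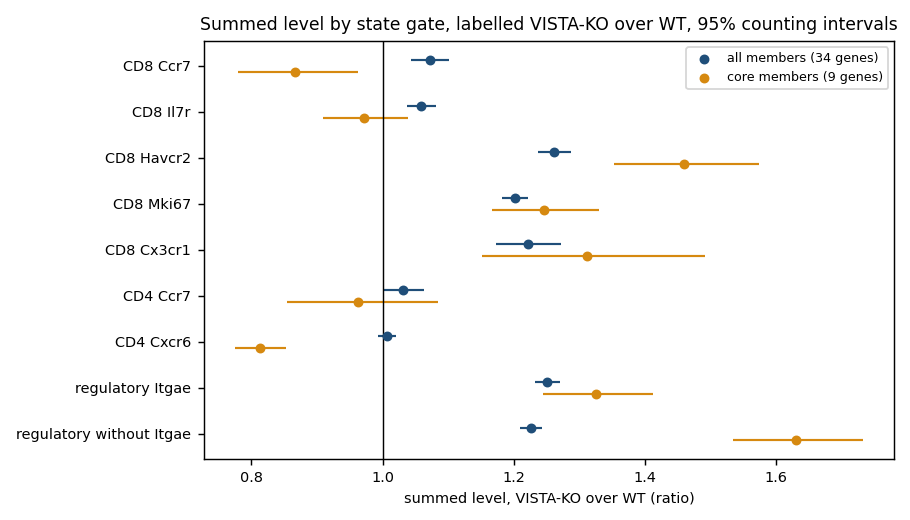
Ratio of the summed level, VISTA-KO over WT, in 9 groups of cells set by single-gene gates (rows), with blue points for all 34 members, orange points for the 9 core members and 95% counting intervals. The interval of the core ratio lies below 1 for CD8 Ccr7 (0.867) and CD4 Cxcr6 (0.813), and the core ratio lies above 1.2 for CD8 Havcr2, Mki67 and Cx3cr1 and for both regulatory groups.

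T cell receptors gave another way to divide the CD8 cells. The largest CD8 clonotype of WT had 1034 cells, of which 987 were deep enough to thin, and held 64 core-high cells (6.48%, 5.03 to 8.21) and 580 core CPM. That of VISTA-KO had 291 cells, 288 of them deep enough, and held 19 (6.60%, 4.02 to 10.1) and 486 core CPM. Without it, 3.81% of the WT cells with a clonotype and 3.81% of the VISTA-KO ones were core-high. The third largest clonotype held 0 core-high cells in each library, of 79 and of 60. The Clopper-Pearson upper limits of these shares were 4.56% and 5.96%. The core level of the third largest clonotype was 43.1 and 91.1 CPM. Of the core-high CD8 cells with a clonotype, the largest clonotype held 64 of 178 in WT and 19 of 136 in VISTA-KO. The core-high cells were spread over 78 WT and 100 VISTA-KO clonotypes, so they were not the cells of any single clonotype. When each library's largest clonotype was left out, the log2 ratio of the core sum in CD8 cells was 0.27 in place of 0.13.

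The genes upstream of the members were read from a fixed list of interferon pathway genes, 77 of which have a row. Past 1.2-fold upward and downward were 7 and 1 of 51 that reached 20 CPM in CD8 cells, 9 and 2 of 51 in conventional CD4 cells, 17 and 4 of 49 in regulatory cells and 14 and 4 of 48 in Siglech cells, against the backgrounds given above. Of the ligands, type I and III interferons were next to absent: 17 of 20 such genes had no UMI in either library, and Ifnb1 had 4 UMIs in 2 VISTA-KO cells. Siglech cells held 0 Ifna or Ifnb1 UMIs. With 3 cells as the floor of a count of 0, used here in place of the Clopper-Pearson limit, that stands for 1.36% of WT and 2.17% of VISTA-KO cells. Ifng, the type II interferon, was 209 and 333 CPM in CD8 cells (log2 ratio 0.66), 232 and 309 CPM in conventional CD4 cells (0.41) and 106 and 99.8 CPM in regulatory cells (-0.08).

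Receptors and brakes differed by class as well. Ifnar1 was 98.7 and 165 CPM in regulatory cells (0.71), 91.1 and 126 CPM in conventional CD4 cells (0.45) and 91.9 and 111 CPM in CD8 cells (0.25), while Ifnar2 was within 1.2-fold in the T cell classes. The brakes Socs1 and Socs3 had log2 ratios of 0.54 and 0.71 in regulatory cells, and Socs3 0.46 in conventional CD4 cells. Of the interferon-stimulated genes outside the list, Igtp, a GTPase known for its response to interferon gamma, was 116 and 168 CPM in CD8 cells (0.51), 152 and 219 CPM in conventional CD4 cells (0.51) and 199 and 329 CPM in regulatory cells (0.71). Gbp2, another such GTPase, had log2 ratios of 0.08, 0.24 and 0.46 in these classes. In conventional CD4 cells Irf1 and Igtp were past the threshold upward, Gbp2 was within it, and Ifit1, Ifit2, Ifit3 and Rsad2 were past it downward. Of the 34 interferon-stimulated genes outside the list that reached 20 CPM there, 6 were past it upward and 2 downward. Backgrounds were 4.68% and 6.17% of all genes, and the median log2 ratio of the 34 was 0.01. In core-high cells of that class Igtp was 3.59-fold higher and Irf1 1.51-fold.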

How the data were processed

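Single-cell 5′ gene expression and T cell receptor libraries were made by the authors from CD4+ and CD8+ TILs, 1 of each kind per genotype. The methods name a 5′ kit, whereas a 3′ kit that includes feature barcodes stands in the labels, and the tables list gene expression only. The authors aligned reads and counted UMIs of each gene in each barcode with Cell Ranger 5.0.0 on mm10 (GRCm38), and the counts were deposited for called barcodes without further filters. The authors' later steps in Seurat 4 were not repeated. Kept were cells in which 600 or more genes were detected and mitochondrial UMIs stayed under 30%, as in the study's methods. Doublets were not removed except in an alternative.

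Counts were summed over the cells of a class and library and scaled to the summed UMIs of that class as CPM. A UMI stands for 1 molecule and is not scaled by gene length. Ratios used CPM plus 5 for single genes, a mean of at least 20 CPM and a threshold of 1.2-fold. For single cells, each cell was thinned to 2000 UMIs with a fixed seed. With 1 library per genotype no test across cells was run. Intervals assume Poisson or binomial counting and leave out the spread between mice. Those of levels and ratios also treat the UMIs of 1 cell as independent and leave out the spread between cells. The variance of core UMIs per CD8 cell was 10.9 (WT) and 9.36 (VISTA-KO) times the mean. In conventional CD4 cells it was 13.5 and 8.35 times the mean, and in regulatory cells 6.42 and 5.80 times. The intervals of the core sums are therefore too narrow. The steps for CPM and folds were tested on simulated Poisson counts of class sums, which hold no spread between cells. How often the ratio intervals cover a true ratio was not tested. The single-cell, clonotype and promoter steps were not tested in that way. Tools were matplotlib 3.10.9, pandas 2.3.3, scipy 1.17.1 and numpy 2.4.6 under Python 3.11.15.

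The text names the 35 members, a list of 80 interferon pathway genes, and the 10 genes outside the members with at least 20 CPM and the highest core-high ratio in CD8 cells. The text gives single values for only some genes of that pathway list. Among the rest is 1 gene whose result is left out of the text. The members and lists were chosen with earlier results of these data known. Alternatives changed the class rules, doublets, clonotypes, dividing cells, other cells' markers, depth, weighting, pseudocount, low-level filter, fold threshold and core-high threshold. Promoter windows were read from RefSeq (GRCm38.p6), and motifs were searched on both strands.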

Additional observations from a re-analysis of the deposited data

Results flagged for a closer look

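Ifit1 lay on opposite sides of the 1.2-fold threshold in different classes, with a log2 ratio (VISTA-KO to WT) of 0.32 in regulatory cells and -0.47 in conventional CD4 cells. Ifit2 did so with 0.74 in Siglech cells, from 16.8 and 31.5 CPM, and -0.54 in conventional CD4 cells. Rsad2 did so with 0.31 in CD8 cells and -0.49 in conventional CD4 cells, although the CD8 value was -0.02 among cells of 3000 to 8000 UMIs. None of these differences between classes was tested, since each genotype has 1 library.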

How the results depend on the processing

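No paired analysis was possible because each genotype has 1 library. Values below are log2 ratios of the summed members in CD8, conventional CD4, regulatory and Siglech cells unless said otherwise, against 0.23, -0.00085, 0.31 and 0.28 as reported, and counts of members past the threshold, against 4, 1, 17 and 9 upward and 0, 5, 0 and 2 downward. A value is given where it left the counting interval of the reported one or a count moved by over 1.5 times, and the cause was not tested.

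With the mean of each cell's CPM the sums were 0.20, -0.10, 0.21 and 0.20, downward counts were 2 in CD8 and 0 in Siglech cells (background 3.52% and 15% of all genes), and the CD8 core sum turned from 0.13 to -0.027. Thinned to 2000 UMIs the sums were 0.19, -0.11, 0.18 and 0.21, and the CD8 core sum was -0.030. Without doublet candidates they were 0.20 in CD8, -0.074 in conventional CD4 and 0.22 in Siglech cells, with downward counts of 1 in CD8 and 1 in Siglech cells and 2 upward in conventional CD4 cells (3.67%, 14.4% and 4.02%). Without dividing cells they were 0.19, -0.11, 0.19 and 0.25, with 8 downward in conventional CD4 and 0 in Siglech cells (7.45% and 15.1%). Without the largest clonotype the CD8 sum was 0.21. Relative to the median of all genes the sums were 0.25 in CD8 and 0.033 in conventional CD4 cells. Without Ly6a they were 0.022 in conventional CD4 and 0.44 in regulatory cells. With Siglech cells also in the T cell classes the conventional CD4 sum was -0.064. With stricter classes the sums were -0.17 in conventional CD4 cells, with 2 upward and 12 downward (4.78% and 8.60% of all genes), and 0.33 in regulatory cells. Without cells holding macrophage or melanoma UMIs the Siglech sum was 0.19, and Oasl2 and Lgals3bp turned there to -0.41 and -0.12. Cd68 gave most of the macrophage marker CPM of Siglech cells, as stated above.

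At 1.5-fold the upward counts were 0, 0, 3 and 2, and the downward counts 1 in conventional CD4 and 0 in Siglech cells, where 0.677% to 3.23% of all genes passed. A pseudocount of 1 CPM gave 2 upward in conventional CD4 cells (5.31%), and one of 20 CPM gave 1 downward in Siglech cells (9.88%). A filter at 5 CPM, or none, gave 8 downward in conventional CD4 (8.84% and 6.87%) and 5 in Siglech cells (19.2% and 18.7%). The share of core-high regulatory cells turned to a log2 ratio of -0.052 without thinning.

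The following settings were chosen after seeing the data. Without cells holding Cd4 and Cd8 UMIs the sums were -0.17 in conventional CD4, 0.21 in regulatory and 0.32 in Siglech cells, with 2 upward and 12 downward in conventional CD4 cells (background 4.78% and 8.60% of genes) and 16 upward and 1 downward among 105 and 79 Siglech cells (19.4% and 19.5%). With cells of 3000 to 8000 UMIs only they were 0.18, -0.083, 0.14 and 0.073, with downward counts of 1 in CD8, 1 in regulatory and 6 in Siglech cells (4.35%, 12.6% and 25.4%) and 2 upward in conventional CD4 cells (5.46%). The CD8 core sum was then -0.087, that of Siglech cells -1.10 in place of 0.05, Rsad2 in CD8 cells -0.018, and Irf9 and Lgals3bp in Siglech cells -0.058 and -0.079. Over all settings, 1067 of 1360 single-member values stayed within their interval, 288 moved and 5 turned.

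The number of cells limits the Siglech class most, at 221 and 138. A pool of mice per genotype leaves the spread between animals unmeasured.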
